A study of Mus musculus with 4 samples.

Results

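The genes described here are 6 of the insulin-like growth factor binding proteins, Igfbp2, Igfbp3, Igfbp4, Igfbp5, Igfbp6 and Igfbp7, together with the receptor gene Igf1r. They were chosen by symbol, as 7 of the 32479 genes in the deposited matrices, and followed across the keratinocytes of mouse back skin. Single cells were captured from 4 female C57BL/6N mice at postnatal day 19, with 1 deposited count matrix per mouse. The 2 control mice were CerS4fl/flK14Cre- and the 2 CerS4epi-/- mice were CerS4fl/flK14Cre+, so both genotypes carried the floxed alleles of ceramide synthase 4, an enzyme of sphingolipid synthesis, and the Cre mice expressed the recombinase under the keratin-14 promoter, which is active in basal keratinocytes of the epidermis and its appendages. The comparison asked which of these genes differed with epidermal loss of CerS4, and in which keratinocytes.

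IGF1 and IGF2 are secreted ligands that signal through the receptor tyrosine kinase IGF1R to the PI3K, AKT and mTOR pathway. The secreted binding proteins hold the ligands in the extracellular space, restrain or prolong their access to the receptor, and are themselves cleaved by proteases such as PAPP-A, which releases ligand from IGFBP4. In skin the ligands come largely from dermal fibroblasts, and the epidermis expresses the receptor and several binding proteins.

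In GRCm39 coordinates, Igfbp2 (chr1:72863606-72891634, plus strand) and Igfbp5 (chr1:72897091-72914043, minus strand) lie 5456 bp apart. Igfbp3 (chr11:7156086-7164179, minus strand) lies 3539 bp from Igfbp1, and Igfbp4 is on the same chromosome at chr11:98932064-98945218 on the plus strand. Igfbp7 is at chr5:77493130-77555931 (minus strand), Igfbp6 at chr15:102052697-102057953 (plus strand) and Igf1r at chr7:67601518-67883416 (plus strand). Reads over whole gene bodies were counted, introns included.

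Libraries held 39231945 to 53106317 counts, and 34150 cells passed the limits of 1200 counts or more and no more than 20% mitochondrial counts, 7567 to 9086 per mouse, with a median of 3266.5 to 3884 counts per cell. The mitochondrial limit removed 68 and 91 cells in control and 363 and 316 in CerS4epi-/- mice, and the median mitochondrial share of the cells kept was 8.66% and 8.56% against 9.94% and 9.68%. The part of this shift in the results was not tested beyond a stricter limit of 10%. Cers4 itself overlapped over all cells (17.4 and 3.37 CPM in control, 4.21 and 7.73 CPM in CerS4epi-/- mice), but in the sebaceous gland-like cells, where it was highest and of which only 2 to 32 were captured per mouse, it was 2876 and 3968 CPM in control and 293 and 438 CPM in CerS4epi-/- mice. In T cell-like cells, which do not express keratin 14, it was 115 and 79.8 CPM against 102 and 120 CPM. No cell barcode was shared between the 2 mice of a genotype, whereas 64 to 102 were shared between mice of different genotypes. Cells were labelled with sample tags before capture, and mice captured together and separated by tag would share no barcode. Which mice were captured together is not given in the sources used here, so capture and genotype cannot be told apart. Of 16 clusters, 12 were keratinocytes. They comprised interfollicular epidermis (IFE) basal-like clusters 0, 2 and 3, cycling-like cluster 9, IFE differentiated-like clusters 1 and 4, IFE keratinized-like clusters 7 and 8, upper hair follicle-like clusters 5, 6 and 10, and inner bulge-like cluster 13. No cluster was outer bulge-like in the main clustering. The outer bulge is therefore represented by the 690 cells with at least 1 count of Lhx2, a transcription factor of hair follicle stem cells. Of these cells, 78.0% lay in cluster 6. Lhx2 itself was lower in CerS4epi-/- cells of cluster 6, at 121 and 86.0 CPM against 317 and 360 CPM in control. The choice of Lhx2-positive cells is thus not independent of genotype, and every outer bulge-like value carries that limit. At resolution 1.2 an outer bulge-like cluster, led by Krt6a, Cald1 and Gpx2, held 84 and 55 control and 378 and 381 CerS4epi-/- cells. With another seed, a cluster led by the same genes was named inner bulge-like. Cluster 6 may therefore hold a mix of cells that changes with genotype. The part of such a change in the cluster 6 differences was not tested. Levels are CPM, counts of a gene scaled to one common total, the same in every library, over the summed cells of a class or cluster in one mouse. A gene was called where the edgeR quasi-likelihood test over the 4 mice gave an adjusted p under 0.05.

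Igfbp3, the main carrier of IGFs in serum and also a secreted product of keratinocytes, was called lower in the CerS4epi-/- mice in 6 of 7 keratinocyte classes, of which 4 stood above the immune-cell level in control. In IFE basal-like cells its level was 450 and 373 CPM in the control mice and 90.5 and 56.4 CPM in the CerS4epi-/- mice. The groups lay far apart, and the difference was 5.38-fold (log2 -2.43 ± 0.20 SE, adjusted p = 0.000924). In this class 7.43% of 13152 genes tested were called in either direction, and 2.95% of those tested were called lower in the CerS4epi-/- mice. Leaving out each mouse in turn gave log2 differences between -2.83 and -2.13, all called.

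In control skin Igfbp3 was graded among the basal-like clusters. It stood at 629 and 514 CPM in cluster 0, which is led by Antxr1, Smoc2 and Itga3, at 263 and 210 CPM in cluster 2, led by Pyy and Plagl1, and at 16.5 and 40.7 CPM in cluster 3, led by Igfbp4, Aldh3a1 and Spock2. These 3 clusters did not overlap in their control values, with cluster 3 not above the immune-cell level given below in either genotype. In the CerS4epi-/- mice the order was the same, with 162 and 103 CPM in cluster 0, 36.6 and 25.5 CPM in cluster 2, and 3.14 and 1.78 CPM in cluster 3. The difference was called in each cluster tested on its own, a comparison added after the data were seen (log2 -2.05 ± 0.17, adjusted p = 3.15e-05 in cluster 0, -2.85 ± 0.15, adjusted p = 2.03e-07 in cluster 2, and -3.36 ± 0.45, adjusted p = 0.000116 in cluster 3). Of all genes tested 4.37%, 4.13% and 6.43% were called in these clusters.

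The lower level of Igfbp3 was also a lower share of cells with a count. In cluster 0, 46.7% and 41.8% of control cells had at least 1 count, against 17.8% and 13.4% of CerS4epi-/- cells. Median depth per cell there was 2847 and 2672 in control but 3483 and 2919 in CerS4epi-/- mice. After thinning of every cell to 1200 counts, which left out no cell, the shares were 33.7% and 30.5% in control and 10.2% and 8.135% in CerS4epi-/- mice. Among T cell-like cells, which should lack the gene, 5 of 170 control cells (2.94%) and 0 of 285 CerS4epi-/- cells had a count, the latter allowing a share of up to 1.05%, at median depths of 1540 to 1904 counts.

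**Figure D1:**
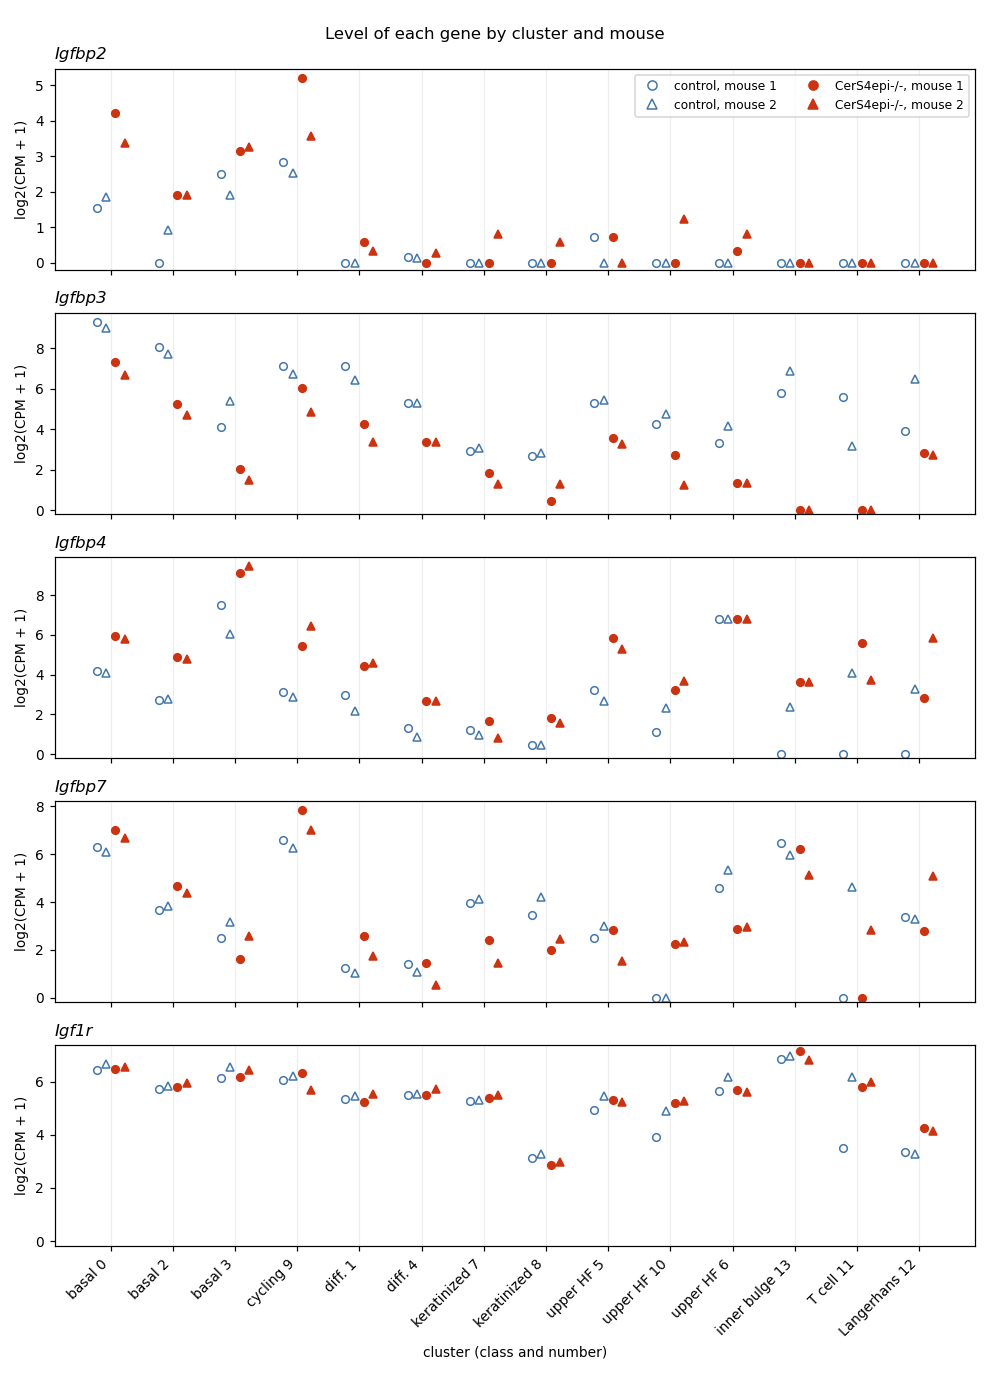
Level of Igfbp2, Igfbp3, Igfbp4, Igfbp7 and Igf1r, as log2(CPM + 1), in each keratinocyte cluster and in the T cell-like and Langerhans cell-like clusters, with 1 symbol per mouse (open blue, control; filled red, CerS4epi-/-). In cluster 0 the control mice stood at 629 and 514 CPM of Igfbp3 and the CerS4epi-/- mice at 162 and 103 CPM, whereas Igf1r overlapped between genotypes in 9 of 12 keratinocyte clusters.

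Igfbp3 was also called lower in classes other than the basal-like one. IFE differentiated-like cells, which express keratin 1 and keratin 10 on leaving the basal layer, had 78.9 and 56.4 CPM in control and 13.5 and 9.28 CPM in CerS4epi-/- mice (log2 -2.54 ± 0.19, adjusted p = 0.00029, where 6.73% of 12628 genes tested were called). Cycling-like cells had 138 and 104 CPM against 65.6 and 28.1 CPM (log2 -1.22 ± 0.24, adjusted p = 0.0215, where 0.935% of 9301 genes tested were called). This call in the cycling-like cells was lost without control mouse 1 (adjusted p = 0.0926), with at most 10% mitochondrial counts (0.145) and with at least 2000 counts per cell (0.0582). Upper hair follicle-like cells had 24.9 and 34.0 CPM against 5.57 and 3.65 CPM (log2 -2.56 ± 0.25, adjusted p = 0.000356, where 15.6% of 11648 genes tested were called). This class includes cluster 6, which held 78.0% of the Lhx2-positive cells. Cluster 6 made up 295 and 167 of the 1033 and 781 control cells of the class. In CerS4epi-/- mice it made up 797 and 885 of 1788 and 1655, so the mix of the class shifted with genotype.

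The inner bulge-like cells, a small class of 64 and 57 control and 33 and 36 CerS4epi-/- cells, had 13 and 28 counts of Igfbp3 in the control mice, and Igfbp3 was at 0 in both CerS4epi-/- mice. Against a floor of 3 counts over the group the level was at least 10.1-fold lower (adjusted p = 0.00651, where 0.783% of 3574 genes tested were called). The call was lost without CerS4epi-/- mouse 1 (adjusted p = 0.717) or CerS4epi-/- mouse 2 (adjusted p = 0.784), with DESeq2 (0.255) and with no filter on low counts (0.808). In the Lhx2-positive outer bulge-like cells Igfbp3 was 39.2 and 27.0 CPM in control and 24.4 and 18.2 CPM in CerS4epi-/- mice, a difference that was not called (log2 -0.60 ± 0.36, 95% interval -1.30 to 0.11, adjusted p = 0.379, where 8.9% of 8147 genes tested were called). Cluster 6, which held most of these cells, was called lower when tested on its own (log2 -2.82 ± 0.55, adjusted p = 0.00397, where 11% of genes tested were called). Its control level of 12.9 ± 5.35 CPM (SD) was not above the immune-cell level given below. Among the Lhx2-positive cells within cluster 6, Igfbp3 did not pass the filter on low counts.

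Igfbp3 was thus called lower in 6 of 7 classes, and both CerS4epi-/- mice lay below both control mice in 12 of 12 keratinocyte clusters. Of all genes tested, 2.95% were called lower in IFE basal-like, 0.226% in cycling-like, 2.93% in IFE differentiated-like, 5.64% in IFE keratinized-like, 6.7% in upper hair follicle-like, 4.59% in outer bulge-like and 0.448% in inner bulge-like cells. Lack of overlap by itself was common, at 56.6%, 41.5%, 54.9%, 59.3%, 58.4%, 47.8% and 32.7% of the genes at 1 CPM or more in the same order of classes. Both CerS4epi-/- mice lay below both control mice for 35.2%, 23.9%, 26.1%, 40.5%, 34.2%, 26.6% and 15.3% of them. These shares are per class, and the share of genes lower in every cluster was not computed. Counts of Igfbp3 were also present in immune cells, at 35.6 CPM (95% Poisson interval 22.6 to 53.4, counting error only) over the T cell-like and Langerhans cell-like cells of the control mice and 2.07 CPM (0.251 to 7.49) in those of the CerS4epi-/- mice. The immune-cell level thus moved with genotype in the same direction, and its part in the differences was not tested. Keratinocyte clusters stood above that interval in 5 of 12 cases in either genotype. The control levels of the upper hair follicle-like cells and of the IFE keratinized-like cells (6.21 and 7.05 CPM, against 1.79 and 1.48 CPM in CerS4epi-/- mice, log2 -1.89 ± 0.29, adjusted p = 0.00299, where 14.1% of 11055 genes tested were called) did not, and neither did cluster 3. The keratinized-like call was lost without control mouse 1 (adjusted p = 0.0788) or control mouse 2 (adjusted p = 0.133).

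Fibroblast transcripts, summed over 7 markers of which all 7 had a count, were at 78.5 and 77.5 CPM in control and 35.0 and 81.1 CPM in CerS4epi-/- IFE basal-like cells. The fibroblast sum overlapped between genotypes, and in cluster 2 it was 1.57 to 2.95 CPM in the 4 mice, where Igfbp3 differed by 7.22-fold. Its part in the difference was not tested. In these summed counts, less RNA per cell and fewer cells with the transcript cannot be told apart. The shares of cells with a count do not separate them either, since such a share also falls when the level per cell falls.

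Igfbp4, a binding protein that mainly restrains IGF action until it is cleaved, moved in the opposite direction. Its level in IFE basal-like cells was 34.1 and 16.7 CPM in the control mice and 146 and 205 CPM in the CerS4epi-/- mice. The groups did not overlap, and the difference was 7.15-fold (log2 2.84 ± 0.28, adjusted p = 0.0018), in a class where 4.48% of genes tested were called higher. Without each mouse in turn it lay between 2.41 and 3.43 on the log2 scale, all called.

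Within the basal-like clusters Igfbp4 was concentrated in cluster 3, whose other leading genes include Aldh3a1, Fst and Sostdc1. There it stood at 182 and 65.7 CPM in control and 543 and 700 CPM in CerS4epi-/- mice (log2 2.32 ± 0.23, adjusted p = 5.22e-06). Cluster 3 itself held 687 and 527 control cells and 1246 and 1144 CerS4epi-/- cells, so a class total also carries this shift in cell numbers. The genotypes differed within the other basal-like clusters as well, at 17.1 and 16.0 CPM against 59.8 and 55.0 CPM in cluster 0 (log2 1.84 ± 0.12, adjusted p = 1.08e-05) and 5.70 and 5.85 CPM against 28.8 and 26.7 CPM in cluster 2 (log2 2.30 ± 0.21, adjusted p = 1.43e-05). The cluster 2 levels were not above those of the immune cells given below for either genotype. The genes of the IGF pathway had been held out of the clustering, so Igfbp4 did not place cells in cluster 3.

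The share of cluster 3 cells with at least 1 count of Igfbp4 was 21.1% and 9.49% in control and 48.6% and 52.8% in CerS4epi-/- mice. Thinned to 1200 counts per cell, the shares were 15.1% and 6.64% against 34.0% and 39.6%, so more cells had a count at equal depth. Of the T cell-like cells, 1 of 170 control cells (0.588%) and 8 of 285 CerS4epi-/- cells (2.81%) had a count.

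**Figure D2:**
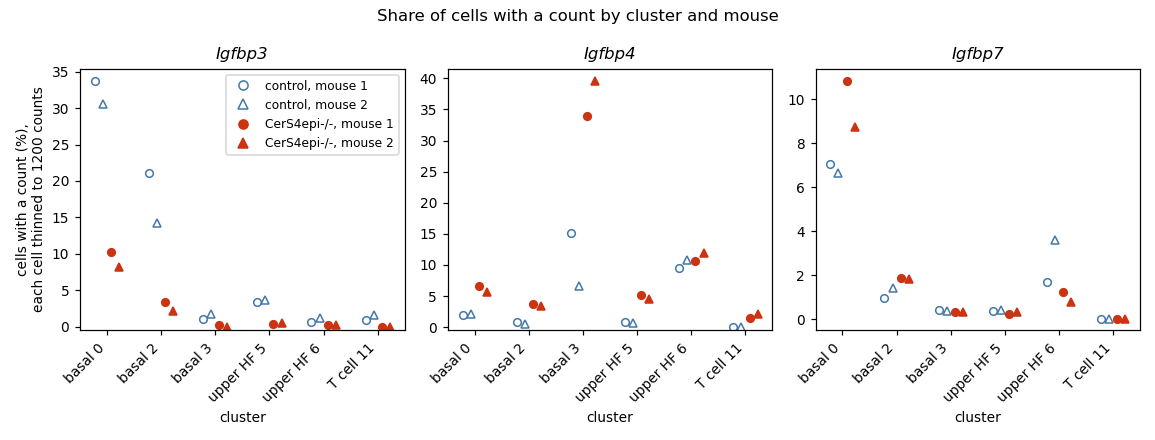
Share of cells with at least 1 count of Igfbp3, Igfbp4 and Igfbp7 (percent, each cell thinned to 1200 counts) in 5 keratinocyte clusters and the T cell-like cluster, with 1 symbol per mouse. Igfbp4 was found in 15.1% and 6.64% of control and 34.0% and 39.6% of CerS4epi-/- cells of cluster 3, and in 9.49% to 11.9% of cluster 6 cells of either genotype.

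Igfbp4 was called higher in 4 of the 5 classes in which it passed the filter on low counts, the IFE basal-like, cycling-like, IFE differentiated-like and upper hair follicle-like cells. There 4.48%, 0.71%, 3.8% and 8.89% of all genes tested were called higher, and 4.31% were in the outer bulge-like cells, where Igfbp4 was not. Cycling-like cells had 7.66 and 6.37 CPM in control and 42.1 and 86.6 CPM in CerS4epi-/- mice (log2 3.12 ± 0.39, adjusted p = 0.000463). Upper hair follicle-like cells had 33.7 and 25.4 CPM against 76.1 and 78.6 CPM (log2 1.44 ± 0.14, adjusted p = 0.000333), with no overlap. IFE differentiated-like cells were called too (3.68 and 1.79 CPM against 12.6 and 13.1 CPM, log2 2.23 ± 0.26, adjusted p = 0.00132), but at levels not above those of the immune cells. These were 4.64 CPM (0.957 to 13.6) in control and 30.1 CPM (20.1 to 43.2) in CerS4epi-/- mice, so the immune-cell level moved with genotype in the same direction and its part in the differences was not tested. In the CerS4epi-/- mice 5 of 12 keratinocyte clusters stood above that interval.

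Within the upper hair follicle-like class the values varied between clusters, and the difference between clusters 5 and 6 was not tested. Cluster 6, led by Klk10, Krt6a and Cst6, had 110 and 108 CPM of Igfbp4 in control and 110 and 112 CPM in CerS4epi-/- mice, and its difference was small and not called (log2 0.13 ± 0.14, 95% interval -0.15 to 0.40, adjusted p = 0.651). Cluster 5, led by Cd200, Krt79 and Dpysl3, had 8.46 and 5.50 CPM against 57.1 and 38.1 CPM (log2 2.81 ± 0.30, adjusted p = 2.49e-06). Of all genes tested 11% were called in cluster 6 and 5.89% in cluster 5. Cluster 6 held 295 and 167 cells in control and 797 and 885 cells in CerS4epi-/- mice, and it carried 86.1% of the Igfbp4 counts of the class in control and 76.4% in CerS4epi-/- mice. Outer bulge-like cells, most of which lay in cluster 6, had 76.5 and 78.0 CPM against 102 and 99.4 CPM and were not called (log2 0.44 ± 0.21, adjusted p = 0.243). For the Lhx2-positive cells within cluster 6 alone the log2 difference was 0.03 ± 0.31 and not called (adjusted p = 0.971). At resolution 1.2, the only setting with an outer bulge-like cluster, the sign turned to lower in the CerS4epi-/- mice.

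The genotype differences of Igfbp4 were themselves unequal. The difference in upper hair follicle-like cells was smaller than in IFE basal-like cells by 1.37 ± 0.20 on the log2 scale (adjusted p = 0.000472, where 7.5% of 13599 genes tested were called). This call was lost under 1 of 11 alternatives, the marker gates. At the level of single clusters, a comparison added after the data were seen, the difference in cluster 6 was smaller than that in cluster 0 (log2 -1.64 ± 0.22, adjusted p = 1.07e-08, where 6.45% of genes tested were called) and than that in cluster 3 (log2 -2.14 ± 0.27, adjusted p = 0.000151, where 3.35% were called). For Igfbp3 the corresponding differences were not called (log2 -0.15 ± 0.24, 95% interval -0.63 to 0.33, adjusted p = 0.81 for upper hair follicle-like against IFE basal-like cells). IFE differentiated-like and IFE basal-like cells also gave no called difference for Igfbp3 (log2 -0.13 ± 0.12, 95% interval -0.36 to 0.11, adjusted p = 0.683, where 1.76% of genes tested were called).

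**Figure D3:**
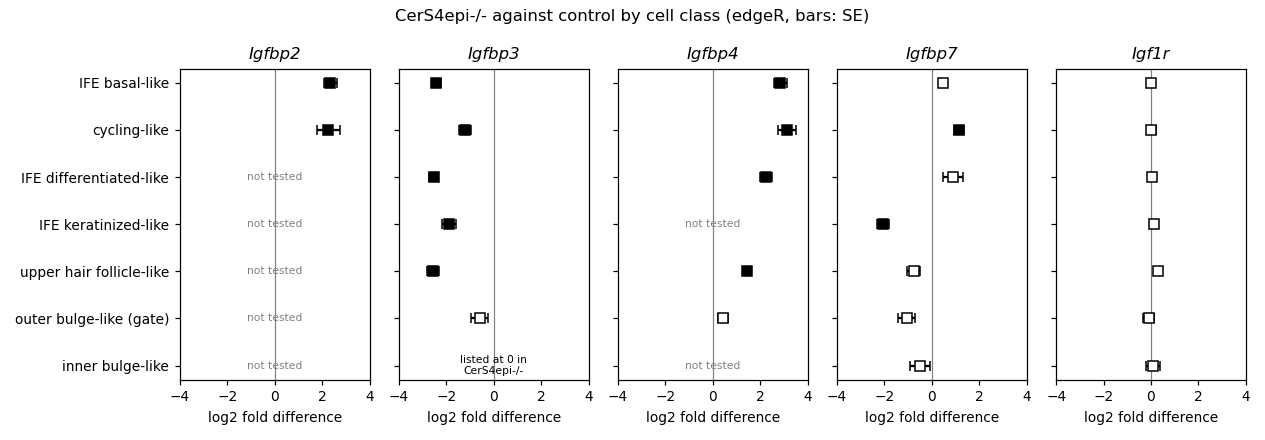
Log2 fold difference of CerS4epi-/- against control mice (squares, edgeR; bars, SE) for 5 genes in 7 cell classes, filled where the adjusted p was under 0.05. Igfbp3 lay to the left of 0 in each class shown, with -2.43 in IFE basal-like cells, Igfbp4 lay to the right, with 2.84 there, and Igf1r stayed between -0.10 and 0.29.

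Igfbp2, a binding protein linked to growth restraint and to stem cell states in other tissues, was a rare transcript here. It passed the filter on low counts in 2 of 7 classes and was called higher in both, where 4.48% of all genes tested in IFE basal-like and 0.71% in cycling-like cells were. Its level stood above that of the immune cells in 0 of 12 keratinocyte clusters in control and 3 of 12 in CerS4epi-/- mice. In IFE basal-like cells it was at 1.70 and 2.04 CPM in control (from 21 and 27 counts) and at 10.9 and 7.30 CPM in CerS4epi-/- mice (from 175 and 84) (log2 2.34 ± 0.27, adjusted p = 0.00285). Cluster 0 held 72.2% of the counts of the class in the CerS4epi-/- mice, with 1.90 and 2.59 CPM against 17.5 and 9.38 CPM (log2 2.66 ± 0.34, adjusted p = 0.000972). Clusters 2 and 3 were not called on their own (adjusted p = 0.0817 and 0.169).

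In cycling-like cells Igfbp2 was at 6.13 and 4.78 CPM in control (8 and 6 counts) and at 35.9 and 10.98 CPM in CerS4epi-/- mice (52 and 9 counts). The groups did not overlap, but CerS4epi-/- mouse 1 carried most of the counts. The call (log2 2.26 ± 0.50, adjusted p = 0.0387) was lost without CerS4epi-/- mouse 1 (log2 1.05, adjusted p = 0.714), and also without control mouse 1 (adjusted p = 0.0517) or control mouse 2 (adjusted p = 0.155). No count of Igfbp2 was found in the 283 control and 384 CerS4epi-/- immune cells, which allows up to 4.64 and 3.11 CPM. The sebaceous gland-like cluster, with 11 and 2 control and 26 and 32 CerS4epi-/- cells and therefore not tested, had the highest Igfbp2 level of the clusters in CerS4epi-/- mouse 1 and gave 0 and 2 control counts against 30 and 49 from CerS4epi-/- mice.

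Igfbp7, a secreted protein with low affinity for IGFs that binds insulin and activin and is best known from vessels and stroma, was called higher in 1 class and lower in 1 class, the latter at levels not above those of the immune cells. Of all genes tested, 0.71% were called higher in cycling-like and 5.64% lower in IFE keratinized-like cells. Cycling-like cells had 95.3 and 76.4 CPM in control and 229 and 129 CPM in CerS4epi-/- mice and were called higher (log2 1.15 ± 0.20, adjusted p = 0.00875). Without control mouse 2 the adjusted p was 0.058. IFE keratinized-like cells had 13.1 and 16.6 CPM against 3.86 and 2.64 CPM and were called lower (log2 -2.07 ± 0.25, adjusted p = 0.00102). That call was lost without control mouse 1 (adjusted p = 0.0623) or control mouse 2 (adjusted p = 0.126).

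The other classes were not called for Igfbp7. IFE basal-like cells had 50.3 and 43.8 CPM in control and 70.9 and 54.7 CPM in CerS4epi-/- mice (log2 0.47 ± 0.13, adjusted p = 0.0718), with no overlap. Within this class cluster 0 was called (78.2 and 66.4 CPM against 130 and 101 CPM, log2 0.73 ± 0.13, adjusted p = 0.00649) and so was cluster 2 (11.7 and 13.3 CPM against 24.2 and 19.7 CPM, log2 0.86 ± 0.19, adjusted p = 0.0212). Of all genes tested 4.37% and 4.13% were called in these clusters. The control levels of cluster 2 were not above those of the immune cells given below. Cluster 0, the basal-like cluster highest for Igfbp3, held 90.4% of the Igfbp7 counts of the control basal-like cells. Without CerS4epi-/- mouse 2 the log2 difference of the whole class was 0.64. The basal-like difference was called under 7 of 19 alternatives, which include clusters 0 and 2 alone and fits without one mouse.

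The upper hair follicle-like class had 8.20 and 11.9 CPM of Igfbp7 in control and 5.94 and 4.97 CPM in CerS4epi-/- mice and was not called (log2 -0.77 ± 0.28, adjusted p = 0.0949). Of its clusters, cluster 5 overlapped and was not called (log2 -0.34 ± 0.52, adjusted p = 0.80), and cluster 6 was called lower. Cluster 10 had 0 counts in control and 4 and 3 counts in CerS4epi-/- mice and did not pass the filter on low counts. Cluster 6 had 22.7 and 39.6 CPM in control and 6.35 and 6.71 CPM in CerS4epi-/- mice (log2 -2.04 ± 0.35, adjusted p = 0.00171, where 11% of genes tested were called). Markers moved with genotype within cluster 6, as Krt14 was at 1132 and 1162 CPM in control and 4640 and 5464 CPM in CerS4epi-/- mice, Krt10 at 5941 and 6862 CPM against 1133 and 914 CPM, and Lhx2 at 317 and 360 CPM against 121 and 86.0 CPM. Their part in the differences of Igfbp7 and of the other genes in this cluster was not tested. Outer bulge-like cells had 60.8 and 33.0 CPM against 18.7 and 26.8 CPM and were not called (log2 -1.07 ± 0.36, adjusted p = 0.0955). They were called under 5 of 13 alternatives, fits without one mouse included. The log2 difference was -1.37 without control mouse 2 and -1.30 without CerS4epi-/- mouse 2. For the Lhx2-positive cells within cluster 6 alone it was -0.86 ± 0.47 and not called (adjusted p = 0.295). Inner bulge-like cells had 88.3 and 62.6 CPM against 74.5 and 34.0 CPM, which overlapped (log2 -0.50 ± 0.43, adjusted p = 0.764).

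The difference between cell types was tested directly. The genotype difference of Igfbp7 in upper hair follicle-like cells minus that in IFE basal-like cells was -1.25 ± 0.28 on the log2 scale (adjusted p = 0.00983), and the call was lost under 5 of 11 alternatives, with an adjusted p of 0.104 without control mouse 2, 0.273 with at most 10% mitochondrial counts, 0.0594 with at least 2000 counts per cell, 0.466 with another seed and 0.227 with marker gates. Between single clusters it was -2.67 ± 0.36 for cluster 6 against cluster 0 (adjusted p = 1.43e-08) and -2.96 ± 0.27 for cluster 7 against cluster 0 (adjusted p = 5.91e-06, where 4% of 12671 genes tested were called). Immune cells had 9.28 CPM (3.41 to 20.2) of Igfbp7 in control and 9.33 CPM (4.27 to 17.7) in CerS4epi-/- mice, at intervals that overlapped. The keratinized-like levels did not stand above it. Transcripts of 6 pericyte or smooth muscle markers had no count in control cluster 6 and summed to 29.7 and 68.9 CPM in CerS4epi-/- cluster 6, and their part in the difference was not tested.

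Igfbp5 and Igfbp6, which bind IGF2 and extracellular matrix in other tissues, were near the limit of detection. Over all cells Igfbp5 was at 0.398 and 0.325 CPM in control and 0.521 and 0.371 CPM in CerS4epi-/- mice, and Igfbp6 was at 0.0747 and 0.116 CPM against 0.104 and 0.371 CPM. Neither passed the filter on low counts in any of the 7 classes, and neither stood above the immune-cell level in any of 12 keratinocyte clusters. A genotype difference was therefore not detectable at this depth.

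Igf1r, the receptor, was detected in all keratinocyte classes and was called in 0 of 7, also without adjustment of p and by DESeq2. In IFE basal-like cells it was 74.4 and 84.7 CPM in control and 74.1 and 81.9 CPM in CerS4epi-/- mice. The difference of 0.02 ± 0.09 on the log2 scale had a 95% interval of -0.16 to 0.20 (adjusted p = 0.932), so in these cells a change as large as those of Igfbp3 or Igfbp4 was outside the interval. Over the classes the estimate ran from -0.10 to 0.29. The largest, in upper hair follicle-like cells (30.6 and 45.7 CPM against 44.0 and 43.2 CPM), was called only without control mouse 2 (log2 0.56, adjusted p = 0.0396).

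Across control cell types Igf1r was highest among named clusters in the inner bulge-like cells, at 114 and 125 CPM, followed by cluster 0 at 86.0 and 100 CPM, and these neighbours did not overlap. Clusters 0, 3, 9, 6 and 2 then followed with overlap between each neighbouring pair in that order, and IFE differentiated-like cells had 42.2 and 44.5 CPM. Keratinized-like cluster 8 was among the lowest, at 8.23 ± 0.56 CPM (SD, n = 2). T cell-like cells had a count of Igf1r in 10 of 170 control cells (5.88%) and 30 of 285 CerS4epi-/- cells (10.53%), and since T cells can express the receptor this is not a clean background.

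The order of clusters differed from gene to gene. For Igfbp3 the named clusters fell from cluster 0 (571 ± 81.3 CPM, SD, n = 2, control) to cluster 2 (236 ± 37.7 CPM) and then to cycling-like cluster 9 (121 ± 24.3 CPM), each separate from the next. Below cluster 9 neighbouring clusters overlapped as far as cluster 6 (12.9 ± 5.35 CPM), which was separate from keratinized-like cluster 7 (6.999 ± 0.62 CPM), and cluster 7 was separate from cluster 8 (5.74 ± 0.36 CPM). For Igfbp4 the sebaceous gland-like cluster (177 ± 108 CPM), cluster 3 (124 ± 82.5 CPM) and cluster 6 (109 ± 1.41 CPM) overlapped one with the next and stood above cluster 0 (16.6 ± 0.77 CPM). For Igfbp7 the cycling-like cluster (85.9 ± 13.4 CPM), the inner bulge-like cluster (75.4 ± 18.2 CPM) and cluster 0 (72.3 ± 8.31 CPM) overlapped one with the next and stood above cluster 6 (31.1 ± 11.9 CPM). Above all of these, for Igfbp3, Igfbp4, Igfbp7 and Igf1r alike, stood an unnamed cluster of 65 cells led by Hbb-bs, Tnc and Krt24, with 742 and 722 CPM of Igfbp3 in its control cells and 438 and 1099 CPM in its CerS4epi-/- cells, which overlapped. Dcn and Col12a1 were also among its leading genes. Its fibroblast marker sum was the highest of the clusters, at 872 and 413 CPM in control and 611 and 1035 CPM in CerS4epi-/- cells, with 3 of 7 markers counted.

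Genes whose mean level followed that of a member over 9 cell classes were listed by Pearson correlation among 11946 genes, as a description with no test, since the classes share libraries and depth. Closest to Igfbp3 were Adamts14 (r = 0.980), Met (0.962) and Cdh4 (0.962). Closest to Igfbp4 were Tst (0.937), Pdk4 (0.925) and Lcn2 (0.924), and closest to Igfbp7 were Fn1 (0.963), Parva (0.926) and Bmp1 (0.924). Alad (0.983), Abcc3 (0.979) and Zfp462 (0.968) were closest to Igfbp2, and Taf11 (0.964), Zfp276 (0.960) and Mettl6 (0.958) to Igf1r.

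The ligands themselves were almost absent from these cells. Over all cells of a mouse, Igf1 had 0 to 1 counts and Igf2 had 5 to 11 counts, so their levels could not be compared between genotypes. Of the other binding proteins, Igfbp1 had 0 to 1 counts per mouse and Igfals, a partner of IGFBP3 in serum complexes, had 16 to 26.

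Of 47 further genes of the IGF pathway, from ligands to FOXO factors, 16 to 32 passed the filter on low counts in a class and few were called. In IFE basal-like cells 1 of 32 was higher and 2 were lower, a share near that of all genes, with a median log2 difference of 0.08 against 0.00 over all genes tested. In upper hair follicle-like cells 3 of 30 were higher and 1 was lower, with a median of -0.01 against 0.01, where 8.89% of all genes tested were called higher and 6.7% lower, so the count was near the background. The cycling-like and inner bulge-like classes had 0 called genes of the list by edgeR, of 28 and 16 tested, with 3 and 2 at an unadjusted p under 0.05 and 0 and 0 called by DESeq2.

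The gene called higher in IFE basal-like cells was Pappa, which encodes PAPP-A, the metalloprotease that cleaves IGFBP4. It stood at 1.05 and 1.21 CPM in control and 7.16 and 7.82 CPM in CerS4epi-/- mice (log2 2.76 ± 0.23, adjusted p = 0.00111), and in cluster 3 at 4.63 and 5.55 CPM against 24.6 and 18.8 CPM. Pappa and Igfbp4, enzyme and substrate, thus were both higher in the basal-like cells, and both were highest there in cluster 3. In upper hair follicle-like cells Pappa was 3.64 and 0.410 CPM against 8.67 and 9.06 CPM (log2 2.04 ± 0.48, adjusted p = 0.021), called within cluster 5 (adjusted p = 0.0161) but not within cluster 6 (log2 0.76 ± 0.49, adjusted p = 0.395). Immune cells had 0.774 CPM (up to 7.23) in control and 2.07 CPM (up to 7.49) in CerS4epi-/- mice, which the control levels of both classes did not clear and the CerS4epi-/- basal-like levels lay on either side of. The highest level of Pappa was in inner bulge-like cells, at 160 and 100 CPM against 115 and 67.9 CPM, which overlapped.

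Among signal transducers, Irs1, the adaptor that links the insulin and IGF1 receptors to PI3K, was lower. It was 35.8 and 34.6 CPM in control and 14.9 and 22.9 CPM in CerS4epi-/- IFE basal-like cells (log2 -0.87 ± 0.17, adjusted p = 0.0213), and the call was lost without control mouse 1 (adjusted p = 0.0526) or control mouse 2 (adjusted p = 0.0624). In upper hair follicle-like cells Irs1 was 21.0 and 18.9 CPM against 7.43 and 8.47 CPM (log2 -1.26 ± 0.20, adjusted p = 0.00322). Immune cells had 10.8 CPM of Irs1 (up to 22.3) in control and 3.11 CPM (up to 9.09) in CerS4epi-/- mice. The basal-like levels stood above these intervals and the upper hair follicle-like levels did not. Socs3, a feedback inhibitor of cytokine and insulin receptor signalling, was higher in IFE differentiated-like cells, at 21.7 and 20.2 CPM against 35.9 and 38.99 CPM (log2 0.82 ± 0.10, adjusted p = 0.00132). These levels lay below those of the immune cells, at 113 CPM in control and 112 CPM in CerS4epi-/- mice. Igf2r, which clears IGF2 by endocytosis, was called higher in upper hair follicle-like cells (12.9 and 15.6 CPM against 24.4 and 25.3 CPM, log2 0.90 ± 0.17, adjusted p = 0.00742). It was not called within clusters 5, 6 or 10 of that class (adjusted p = 0.286, 0.0988 and 0.763), whose cells shifted towards cluster 6 in the CerS4epi-/- mice, and immune cells had 37.1 and 57.0 CPM.

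Foxo1, a transcription factor that AKT keeps out of the nucleus, differed by class. In IFE basal-like cells it was 139 and 146 CPM in control and 90.9 and 114 CPM in CerS4epi-/- mice (log2 -0.44 ± 0.10, adjusted p = 0.0425), a call lost without control mouse 1 (adjusted p = 0.0763), control mouse 2 (0.165) or CerS4epi-/- mouse 1 (0.0715). In upper hair follicle-like cells it was called higher (log2 0.47 ± 0.10, adjusted p = 0.0113), but this rested on cluster 6, at 63.7 and 60.4 CPM against 140 and 116 CPM, and the estimate was -0.06, -0.08 and -0.05 where the cells were reclustered with another seed, at a finer resolution or without Harmony. Immune cells had 71.2 CPM of Foxo1 (52.1 to 94.9) in control and 105 CPM (85.3 to 127) in CerS4epi-/- mice. The upper hair follicle-like levels (75.6 and 74.6 CPM against 101 and 96.8 CPM) did not stand above these intervals. Of the basal-like levels only the control ones did. Outer bulge-like cells had Foxo1 higher (log2 1.18 ± 0.24, adjusted p = 0.00907, and 0.0606 without control mouse 1) and Foxo3 lower (log2 -0.72 ± 0.19, adjusted p = 0.0325). The Foxo3 call was lost without CerS4epi-/- mouse 1 (adjusted p = 0.0594), CerS4epi-/- mouse 2 (0.104) or control mouse 2 (0.0942).

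**Figure D4:**
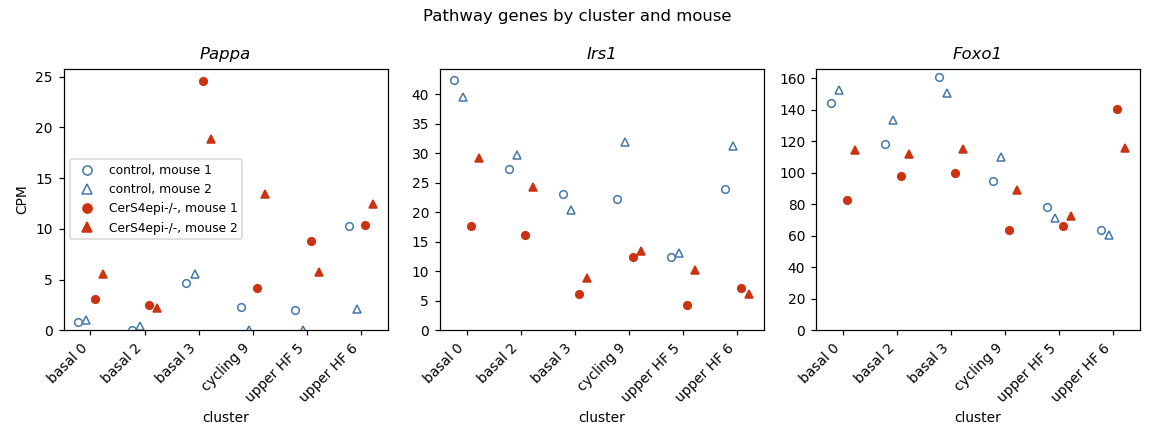
Level (CPM) of Pappa, Irs1 and Foxo1 in the basal-like, cycling-like and upper hair follicle-like clusters 0, 2, 3, 9, 5 and 6, with 1 symbol per mouse. Pappa in cluster 3 stood at 24.6 and 18.8 CPM in CerS4epi-/- against 4.63 and 5.55 CPM in control mice, and Foxo1 in cluster 6 at 140 and 116 CPM against 63.7 and 60.4 CPM.

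In IFE keratinized-like cells Igf2bp3 was called lower (log2 -0.54 ± 0.10, adjusted p = 0.00881) and Pik3cb, Tsc2 and Foxo3, of the PI3K, mTOR and FOXO branches, were called higher (log2 0.46 ± 0.08, 0.46 ± 0.09 and 0.31 ± 0.08) in a class where 14.1% of genes were called. None of these 4 calls held without control mouse 1 (adjusted p = 0.126, 0.11, 0.154 and 0.159) or without control mouse 2 (adjusted p = 0.155, 0.136, 0.15 and 0.213).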

How the data were processed

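Back skin epidermis of 4 mice was profiled with BD Rhapsody whole transcriptome libraries. The authors trimmed reads with fastp 0.23.2, demultiplexed sample tags, and mapped reads to GRCm39 with Gencode vM29 in STAR 2.7.10a, counting whole gene bodies and dividing multi-mapped reads by expectation maximisation. The deposited values are expected counts per gene and barcode, so copies sharing reads were split by estimate. Cells were barcodes of 1200 counts or more with no more than 20% of them mitochondrial. No doublet caller was run. Counts were scaled with scran 1.30.0, and 3000 variable genes (12 IGF pathway genes held out), 100 components, Harmony, 30 neighbours and Leiden at resolution 0.8 gave 16 clusters, named from marker lists.

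Expected counts were summed per mouse and class, rounded, and tested with edgeR 4.0.16 (TMM, filterByExpr, quasi-likelihood, Benjamini-Hochberg over all genes tested in the class, threshold 0.05) where every mouse had 20 or more cells of the class. R 4.3.3 and Python 3.11.15 were used. The p-values rest on 2 mice per genotype, a design in which exact two-sided permutation cannot go below p = 0.333, so it was not used for single values. The edgeR tests were tested on simulated data. Intervals on levels are Poisson and those on log2 differences are 1.96 SE. Genes were named by rule: the 7 members, up to 5 called genes of a list of 54 IGF pathway genes per class (47 without the members), and the 3 genes most correlated with each member over classes. The members, the lists and the rule were chosen with earlier results of these data known, and the comparisons of single clusters and of the Lhx2-positive cells within one cluster were added after seeing the data. Gene coordinates were taken by Ensembl identifier from a GRCm39 annotation. The study split pooled cells into pseudoreplicates, which was not done here, because cells of a mouse are not replicates. The alternatives tried were the Wald test of DESeq2 1.42.0, edgeR with that tool's size factors, dropping the filter, leaving out each mouse, a replicate block, stricter cell limits, other seeds, resolution 1.2, no Harmony, and marker gates.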

Additional observations from a re-analysis of the deposited data

Results flagged for a closer look

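The genotype difference of 2 of the members was not equal between cell types, by a test of the interaction of cell type and genotype in edgeR with each mouse as a block. For Igfbp4 the difference in upper hair follicle-like cells was below that in IFE basal-like cells by a log2 value of -1.37 (SE 0.20, adjusted p = 0.000472, a call lost with marker gates, 1 of 11 alternatives), in cluster 6 below that in cluster 0 by -1.64 (SE 0.22, adjusted p = 1.07e-08) and in cluster 6 below that in cluster 3 by -2.14 (SE 0.27, adjusted p = 0.000151). For Igfbp7 the log2 values were -1.25 for upper hair follicle-like against IFE basal-like cells (SE 0.28, adjusted p = 0.00983, a call lost under 5 of 11 alternatives), -2.67 for cluster 6 against cluster 0 (SE 0.36, adjusted p = 1.43e-08) and -2.96 for cluster 7 against cluster 0 (SE 0.27, adjusted p = 5.91e-06). In cluster 7 Igfbp7 was at the level of the immune cells. The class values also cover unlike clusters. For Igfbp4, upper hair follicle-like cluster 5 had a log2 difference of 2.81 ± 0.30 and cluster 6 one of 0.13 ± 0.14. Basal-like clusters 0, 2 and 3 had 1.84 ± 0.12, 2.30 ± 0.21 and 2.32 ± 0.23. In CerS4epi-/- mice the cells of the 2 classes shifted towards clusters 6 and 3, and the part of this shift was not tested. Markers also moved with genotype within cluster 6, so its mix of cells may differ between genotypes. The part of such a difference was not tested either. The comparisons of single clusters were chosen after the data were seen. The cause of these differences was not tested.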

How the results depend on the processing

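The lower Igfbp3 and higher Igfbp4 in IFE basal-like cells kept their direction and call under all 19 alternatives, as did Igfbp3 in IFE differentiated-like cells under 18 and in upper hair follicle-like cells under 19. With 2 mice per genotype, the number of genes called depended on the setting, and the causes were not tested. Of 977 genes called in IFE basal-like cells, the count became 632 with DESeq2, 1983 with no filter, 618 with at most 10% mitochondrial counts, 531 and 454 in clusters 0 and 2 alone, and 460 to 1410 without one mouse. In cycling-like cells (87 called) it became 45 with DESeq2, 277 with no filter, 34 with at most 10% mitochondrial counts, 49 with at least 2000 counts per cell, and 54 to 298 without one mouse. In IFE differentiated-like cells (850) it became 464, 1670, 521 without the 5% of cells of highest count, 355 in cluster 1, and 562 to 1220. In IFE keratinized-like cells (1563) it became 841 with DESeq2, 740 without the top cells, 235 in cluster 8, and 0 to 1317 without one mouse, with 44 without control mouse 1 and 0 without control mouse 2, where 2263 had an unadjusted p under 0.05. In upper hair follicle-like cells (1815) it became 942 with DESeq2, 940 with another seed, 843 at resolution 1.2, 885 without Harmony, 930 with marker gates, and 559, 1131 and 211 in clusters 5, 6 and 10. In outer bulge-like cells (725) it became 310 with DESeq2 and 1094 with no filter. In inner bulge-like cells (28) it became 7 with DESeq2, 0 with no filter (570 at an unadjusted p under 0.05), 1631 with another seed, 59 without Harmony, 222 with marker gates, and 0 to 93 without one mouse, the 0 arising without CerS4epi-/- mouse 1 (258 unadjusted) or mouse 2 (214). For upper hair follicle-like against IFE basal-like cells (1020) it became 644 with at most 10% mitochondrial counts, 596 with another seed and 356 with marker gates, for IFE differentiated-like against IFE basal-like cells (240) 123 with at most 10% mitochondrial counts and 211 to 397 without one mouse, and for cluster 6 against cluster 0 (800) 372 to 756 without one mouse. The replicate numbers were not shown to pair the mice (correlations of deviations from -0.031 to 0.059 over 2 pairs), and a replicate block gave 1828 calls in IFE basal-like, 184 in cycling-like, 2015 in IFE differentiated-like and 114 in inner bulge-like cells. Signs turned for values that were mostly near 0. For Igf1r these were -0.076 to 0.12 without one mouse and -0.0022 with marker gates in IFE basal-like cells, -0.37 to 0.25, -0.0044 and -0.002 in cycling-like cells without one mouse and with other seeds, -0.090 to 0.15, -0.014 without the top cells and -0.023 in cluster 1 of IFE differentiated-like cells, -0.16 in cluster 8, -0.12 in cluster 6, -0.23 to 0.049 in outer bulge-like cells, and -0.076 to 0.19, -0.60 with another seed and -0.35 with marker gates in inner bulge-like cells. The Igf1r difference between IFE differentiated-like and IFE basal-like cells was -0.043 to 0.083 without one mouse and -0.0086 with another seed, and that between clusters 6 and 3 was -0.28 to 0.021. Igfbp7 turned to -0.73 in cluster 3, to -0.059 without one mouse (up to 1.34), -0.50 with marker gates and -0.17 in cluster 4 for IFE differentiated-like cells, and for IFE differentiated-like against IFE basal-like cells to -0.30 without one mouse (up to 0.71) and to -1.08 with marker gates. Igfbp3 turned to 0.12 in outer bulge-like cells with at most 10% mitochondrial counts, and its difference between upper hair follicle-like and IFE basal-like cells to 0.28 with marker gates and to 0.18 without one mouse (lowest -0.50). Igfbp4 turned to -0.76 in outer bulge-like cells at resolution 1.2, the only setting with an outer bulge-like cluster. The Igfbp4 difference between upper hair follicle-like and IFE basal-like cells lost its call with marker gates (adjusted p = 0.133). Inner bulge-like cells with at most 10% mitochondrial counts were too few to test.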
